A study of Bos taurus with 28 samples.

Results

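FABP4 (ENSBTAG00000037526), ADIPOQ (ENSBTAG00000019813), LPL (ENSBTAG00000012855) and CD36 (ENSBTAG00000017866) were followed in muscle biopsies taken when steers had been underfed and again after feed was restored. They are 4 of the 24616 genes in the count files and were chosen by identifier, as genes of fat cells and of fatty acid uptake. The biopsies came from 12 crossbred Aberdeen Angus x Holstein Friesian steers, 6 on each of 2 diets, and every steer was sampled at day 99 and again at day 131. Up to day 99, control steers had free access to concentrates and 7 kg of grass silage a day. Restricted steers had free access to silage and 0.5 kg of concentrate. By day 131 both groups were on one mixed ration of 80% silage and 20% concentrate, 32 days after the restricted diet had ended. Restricted steers were then in compensatory growth, the fast gain that can follow when feed is restored.

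Muscle holds fat cells between its fibres, and these make up the marbling of beef. FABP4 carries fatty acids inside the fat cell, and ADIPOQ encodes adiponectin, a hormone that fat cells secrete. LPL, lipoprotein lipase, frees fatty acids from circulating triglyceride at the capillary wall, and CD36 is a membrane receptor that takes up long-chain fatty acids. LPL and CD36 are made by muscle fibres as well as fat cells, and CD36 also by endothelium and macrophages, so the 4 genes need not follow the same cells. This list of cells is not complete, and the cells that gave the reads of each gene, FABP4 included, were not identified. In a piece of bulk tissue, fewer cells of a type and less RNA per cell cannot be told apart.

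Poly(A) RNA was sequenced in 28 libraries, and the technical libraries of one animal and day were summed to 24 samples. Sample totals ran from 3342314 to 24376288 counts. Values are given as CPM, the reads of a gene scaled to a common library size, after TMM scaling, a correction of the library total for differences in composition. In 3 samples the TMM factor was over 1.3. They were the day 99 samples of control steer 3 (1.69) and restricted steer 5 (1.37) and the day 131 sample of control steer 5 (1.59). These samples had the 3 highest CPM values of both LPL and CD36, so results are given below with and without them. No table paired the identifiers with symbols (0 of 24616 matched). The 4 symbols are therefore those under which the genes were chosen, and markers of other cell types in the biopsies were not measured.

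All 4 genes passed the filter on low counts, which kept 11288 genes. FABP4 and ADIPOQ were counted sparsely, with 1 to 169 reads of FABP4 and 0 to 234 of ADIPOQ in a sample. LPL had 38 to 1600 reads and CD36 36 to 1212. ADIPOQ had no read in 3 samples, all of restricted steers: steer 1 at day 99 and steers 2 and 3 at day 131. At their depths the 95% limits of a count of 0 reach up to 0.910, 0.737 and 0.924 CPM, counting error only. The technical libraries show the same coarseness. Those of control steer 1 at day 99 held 0 and 4 FABP4 reads, and those of restricted steer 2 at day 99 held 6, 9 and 7. Gene lengths were not available, so levels are compared between samples and not between genes.

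The first question is whether the diets differed at the end of restriction. FABP4 in control steers at day 99 ranged from 0.387 to 18.7 CPM with a median of 2.92. In restricted steers it ranged from 0.407 to 1.10 CPM with a median of 0.659. The groups overlapped only through control steer 1, the lowest of all 12 at 4 reads, while the other 5 control steers lay above every restricted steer. The highest control values were those of steer 6 (18.7 CPM) and steer 3 (8.04 CPM). ADIPOQ also reached its highest values in control steers. It ranged from 1.06 to 27.3 CPM in control steers (median 2.94) and from 0 to 3.05 CPM in restricted steers (median 1.22). Control steers 6 (27.3 CPM), 3 (13.3 CPM) and 5 (4.08 CPM) lay above all restricted steers, and the other 3 fell within their range.

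The mean level of FABP4 was 0.708 ± 0.245 CPM in restricted steers and 5.71 ± 6.91 CPM in control steers (SD, n = 6 each). Its fitted level in restricted steers was 7.40-fold lower, a log2 fold change of -2.89 ± 0.82 (SE, 95% interval -4.57 to -1.21; edgeR unadjusted p = 0.00148, adjusted p = 0.495). ADIPOQ averaged 1.28 ± 1.09 CPM against 8.19 ± 10.5 CPM. This was 5.71-fold lower, a log2 fold change of -2.51 ± 0.89 (SE, 95% interval -4.34 to -0.69; edgeR unadjusted p = 0.00872, adjusted p = 0.814). Neither difference passed the adjusted threshold of 0.05, and over the alternative settings the adjusted p ran from 0.147 for FABP4 and 0.232 for ADIPOQ up to 1.00. By edgeR's quasi-likelihood test 0 of the 4 genes were called, as were 0 of all 11288 (0%). At an unadjusted p under 0.05 there were 2 of the 4 (FABP4 and ADIPOQ), against 4.31% of all genes, and DESeq2 and limma voom gave the same 0 and 2. A permutation of log2 CPM between the diets gave larger p values. For FABP4 the difference in means was -1.87 (permutation unadjusted p = 0.028, adjusted p = 0.541). For ADIPOQ it was -1.99 (permutation unadjusted p = 0.054, adjusted p = 0.541), so ADIPOQ did not pass 0.05 there even unadjusted.

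**Figure D1:**
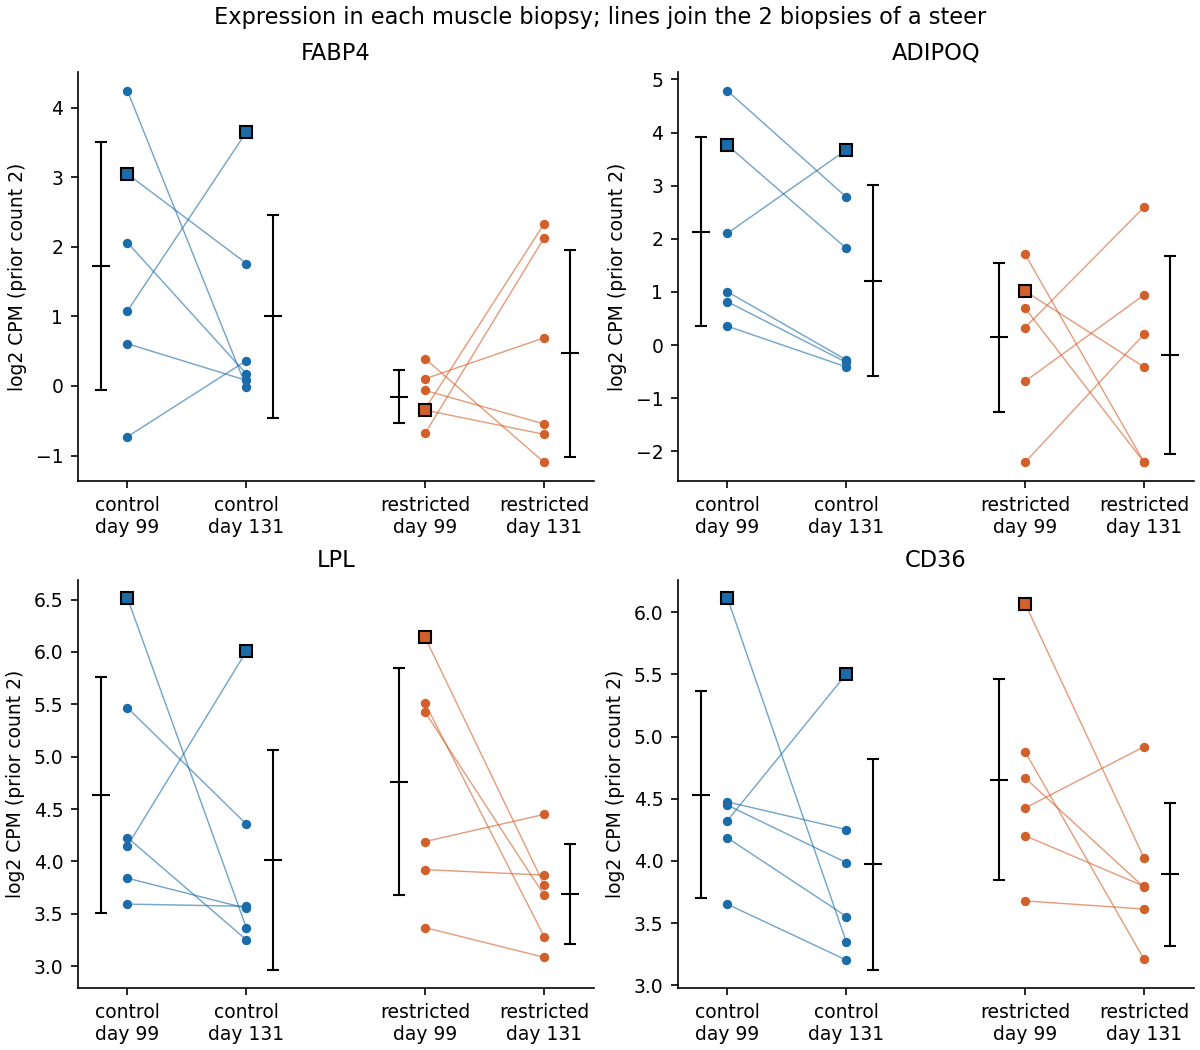
Each point is a biopsy, placed by diet and day on the x axis and by log2 CPM (prior count 2) on the y axis. Lines join the 2 biopsies of a steer, black marks show group means with their SD (n = 6), and squares mark samples with a TMM factor over 1.3. The restricted day 99 points of FABP4 lie close together (SD 0.38 on the log2 scale), and the squares are the highest points of LPL and CD36 in their groups.

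The size of both differences rested in part on control steer 6, the shallowest sample. Without it FABP4 was 4.36-fold and ADIPOQ 3.23-fold lower in restricted steers, and limma voom gave 3.70-fold and 3.59-fold. Without the 3 samples with high TMM factors the differences were 5.98-fold and 4.82-fold. Within sequencing runs 1 to 4 the FABP4 difference, restricted minus control in mean log2 CPM, was 0.83, -1.54, -1.67 and -4.75. For ADIPOQ it was 0.34, -1.51, -1.22 and -4.96. Run 1, where the sign was opposite, held 1 steer of each diet. Run 3 held 1 restricted steer. Run 4, with the largest differences, held 1 control steer, which was steer 6. With run as a covariate FABP4 was 5.32-fold and ADIPOQ 3.45-fold lower.

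LPL and CD36 showed no such separation at day 99. LPL ranged from 11.9 to 91.2 CPM in control steers (median 18.03) and from 10.1 to 70.2 CPM in restricted steers (median 30.4). CD36 ranged from 12.3 to 69.1 CPM in control steers (median 20.7) and from 12.6 to 67.0 CPM in restricted steers (median 23.2). In both genes the ranges of the diets nearly coincided, and each range ended in 1 sample with a high TMM factor, control steer 3 or restricted steer 5. The LPL log2 fold change was 0.04 ± 0.52 (SE, 95% interval -1.02 to 1.10; edgeR adjusted p = 1.00). That of CD36 was 0.09 ± 0.43 (SE, 95% interval -0.79 to 0.97; edgeR adjusted p = 1.00). Intervals of this width do not show that the levels were equal. Without the 3 samples with high TMM factors they were 0.39 for LPL and 0.23 for CD36. Neither sign was stable, since with library totals in place of TMM the log2 fold changes were -0.18 and -0.12. Within runs 1 to 4 the difference was 1.59, 0.84, 0.18 and -1.41 for LPL and 0.48, 0.82, -0.34 and -0.16 for CD36.

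Set against LPL within the same sample, FABP4 and ADIPOQ were lower in restricted steers at day 99. This follows from the values above and is not separate evidence, since mean log2 CPM of LPL differed by only 0.13 between the diets. The log2 ratio of FABP4 to LPL was -4.91 ± 1.01 in restricted and -2.92 ± 1.29 in control steers (SD, n = 6 each), a difference of -1.998. The log2 ratio of ADIPOQ to LPL was -4.62 ± 0.70 against -2.49 ± 1.04, a difference of -2.12. The library total largely cancels in such a ratio. The log2 ratio of LPL to CD36 was 0.11 ± 0.48 in restricted and 0.10 ± 0.68 in control steers. At day 131 the difference between the diets was -0.21 for FABP4 to LPL and -1.06 for ADIPOQ to LPL. These ratios are a description and were not tested.

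At day 131 the diets were compared on the same ration. FABP4 ranged from 0.251 to 4.81 CPM in restricted steers (median 0.933) and from 0.769 to 12.3 CPM in control steers (median 0.990). ADIPOQ ranged from 0 to 5.84 CPM in restricted steers (median 0.735) and from 0.536 to 12.6 CPM in control steers (median 1.96). Control steer 5 had the highest value of each gene and was the only one above all restricted steers in FABP4, joined by control steer 6 (6.66 CPM) in ADIPOQ. The low ends of the diets could not be ordered for ADIPOQ, where 2 restricted steers had no read and control steer 1 had 2. FABP4 had a log2 fold change of -0.81 ± 0.78 (SE, 95% interval -2.40 to 0.79) and ADIPOQ one of -1.44 ± 0.91 (SE, 95% interval -3.30 to 0.42), both with an edgeR adjusted p of 1.00. Without control steer 5 at day 131 the FABP4 value turned to 0.44 and that of ADIPOQ was -0.66. Without restricted steer 4 at day 131 they were -1.44 and -2.74. Without the samples with high TMM factors they were 0.44 and -0.67.

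LPL at day 131 ran from 8.27 to 21.6 CPM in restricted steers (median 13.0) and from 9.31 to 64.1 CPM in control steers (median 11.6). CD36 ran from 9.02 to 30.0 CPM (median 13.6) and from 8.98 to 45.2 CPM (median 13.6). Only control steer 5 lay above all restricted steers in either gene. The log2 fold changes were -0.68 ± 0.53 for LPL and -0.23 ± 0.44 for CD36 (SE; edgeR adjusted p = 1.00 for both), with 95% intervals of -1.76 to 0.41 and -1.13 to 0.67. Without control steer 5 at day 131 they turned to 0.057 and 0.25, and without the samples with high TMM factors to 0.052 and 0.25. By edgeR, 0 of the 4 genes were called, as were 0% of all genes. At an unadjusted p under 0.05 there were 0 of the 4, against 1.74% of all genes, and DESeq2 and limma voom also gave 0. Within runs 2, 3 and 4 the restricted minus control difference was -1.96, 2.06 and -2.53 for FABP4 and -4.02, 0.59 and -1.80 for ADIPOQ. It was 0.12, 0.21 and -1.36 for LPL and 0.15, 0.46 and -0.93 for CD36, and run 1 held no restricted sample.

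**Figure D2:**
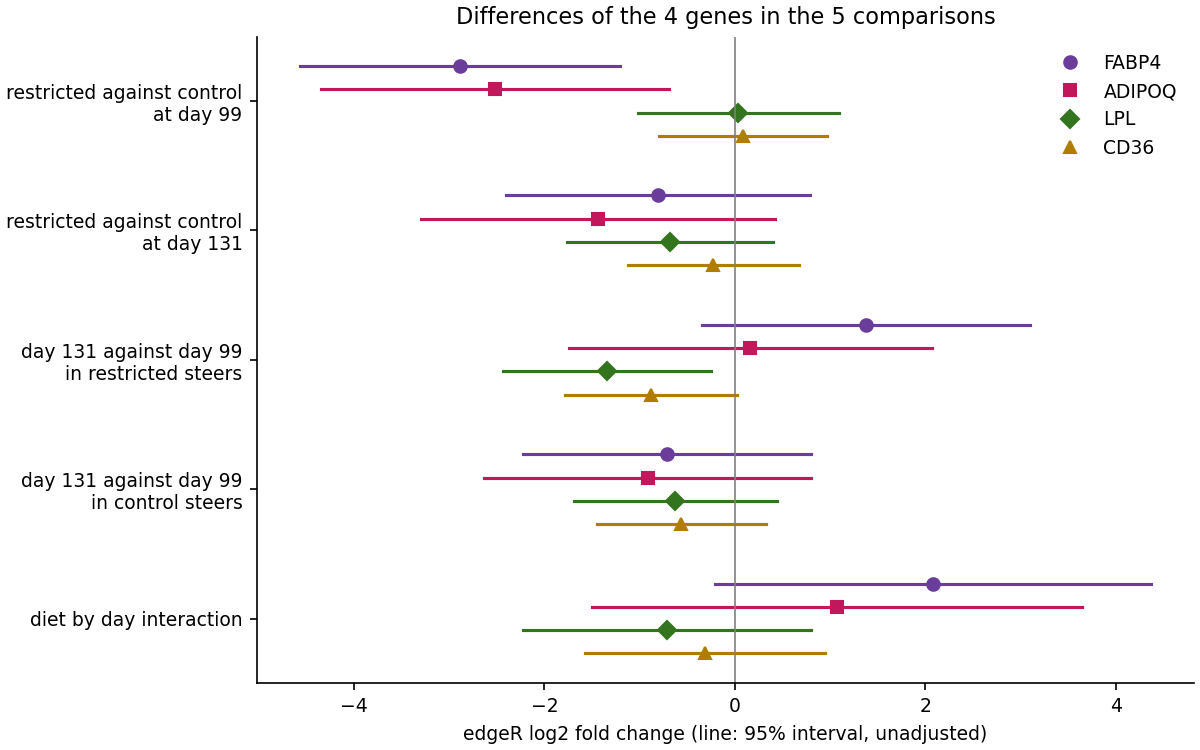
The edgeR log2 fold change of each gene (x axis) in each of the 5 comparisons (y axis), with its unadjusted 95% interval from the fit over all 24 samples. The intervals of FABP4 and ADIPOQ lie below 0 for restricted against control at day 99, that of LPL lies below 0 for the days in restricted steers, and the others include 0.

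The change between the 2 biopsies of restricted steers was examined next, in which ration, time and age cannot be told apart. LPL averaged 33.6 ± 23.3 CPM at day 99 and 13.3 ± 4.71 CPM at day 131 (SD, n = 6), and 5 of 6 steers were lower at day 131. Restricted steers 2, 3 and 5, at 42.8, 45.3 and 70.2 CPM on day 99, lay above every restricted sample of day 131, and only steer 4 was slightly higher at day 131 (18.035 and 21.632 CPM). The log2 fold change was -1.34 ± 0.53, a level 2.53-fold lower (SE, 95% interval -2.43 to -0.25; edgeR unadjusted p = 0.018, adjusted p = 0.211). That fit did not pair the biopsies of a steer. With the steer as a block the LPL value was -1.09 (edgeR unadjusted p = 0.038, adjusted p = 0.257). A paired permutation of log2 CPM gave an unadjusted p of 0.094. CD36 averaged 28.9 ± 19.5 and 15.7 ± 7.38 CPM, again with 5 of 6 steers lower. Its log2 fold change was -0.88 ± 0.44, a level 1.84-fold lower (SE, 95% interval -1.78 to 0.02; edgeR unadjusted p = 0.0554, adjusted p = 0.274).

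LPL and CD36 were lower at day 131 within each run that held both days. In runs 2, 3 and 4 the differences in mean log2 CPM were -1.27, -1.35 and -0.62 for LPL and -1.38, -0.52 and -0.50 for CD36. Library composition moved with them, as restricted steer 5 at day 99 had a high TMM factor and the highest level of both genes. Without the 3 samples with high TMM factors the log2 fold change was -1.04 for LPL and -0.48 for CD36. With a surrogate variable, a covariate estimated from the variation shared by all genes, it was -0.31 and -0.06. With run as a covariate it was larger, at -1.62 for LPL (edgeR adjusted p = 0.198) and -1.14 for CD36 (edgeR adjusted p = 0.222).

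FABP4 in restricted steers went from a median of 0.659 CPM to 0.933 CPM and ADIPOQ from 1.22 to 0.735 CPM. FABP4 was higher at day 131 in 3 of 6 steers, as was ADIPOQ. In steers 4 and 6 both genes were higher, FABP4 by 2.66 and 2.81 and ADIPOQ by 2.27 and 1.63 on the log2 scale, and in steers 3 and 5 both were lower. Steers 1 and 2 had the genes in opposite directions. Several of these signs are not settled by the counts. FABP4 had 3 reads on both days in steer 1, 22 and 7 in steer 2 and 6 and 3 in steer 5. ADIPOQ in steer 1 had 0 and 6 reads. The log2 fold change of FABP4 was 1.37 ± 0.84 (SE, 95% interval -0.35 to 3.095; edgeR adjusted p = 0.344) and that of ADIPOQ 0.16 ± 0.93 (SE, 95% interval -1.75 to 2.07; edgeR adjusted p = 0.922). The difference in mean log2 CPM within runs 2, 3 and 4 was 0.0026, 1.83 and -0.11 for FABP4 and -1.61, 0.06 and 0.07 for ADIPOQ. Without restricted steer 4 at day 131 the ADIPOQ value turned to -1.11, and with the steer as a block it was -0.16. Without the samples with high TMM factors FABP4 was at 1.26 and ADIPOQ at 0.19. With the surrogate variable FABP4 was at 2.01 (edgeR unadjusted p = 0.0497, adjusted p = 0.358) and ADIPOQ at 1.04. With run as a covariate they were at 0.90 and -0.81. By edgeR, 0 of the 4 genes were called between the days in restricted steers, against 0.381% of all genes. At an unadjusted p under 0.05 there was 1 of the 4 (LPL), against 18.7% of all genes, and DESeq2 and limma voom gave the same counts of 0 and 1.

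Control steers, which also went over to the mixed ration after day 99, had lower fitted levels of all 4 genes at day 131, none past the threshold. LPL, CD36 and ADIPOQ were lower in 5 of 6 steers and FABP4 in 4 of 6. Control steer 5 was higher at day 131 in all 4 genes, by 2.57 (FABP4), 1.57 (ADIPOQ), 1.86 (LPL) and 1.18 (CD36) on the log2 scale. The log2 fold changes were -0.71 ± 0.74 for FABP4 and -0.91 ± 0.84 for ADIPOQ. They were -0.62 ± 0.52 for LPL and -0.56 ± 0.44 for CD36 (SE; edgeR adjusted p from 0.722 to 0.730 for the 4 genes). Their 95% intervals were -2.22 to 0.80, -2.63 to 0.80, -1.69 to 0.44 and -1.45 to 0.33. By edgeR, 0 of the 4 were called, as were 0% of all genes. At an unadjusted p under 0.05 there were 0 of the 4, against 3.89% of all genes, and DESeq2 and limma voom also gave 0.

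The control values of FABP4, LPL and CD36 turned when 1 sample was left out. Without control steer 6 at day 99 the log2 fold change was 0.10 for FABP4 and -0.054 for ADIPOQ, and without control steer 3 at day 99 that of LPL was 0.18 and that of CD36 0.11. Without control steer 5 at day 131 the values were -2.03 for FABP4, -1.78 for ADIPOQ, -1.48 for LPL and -1.16 for CD36. Without the samples with high TMM factors they were -1.76 (edgeR unadjusted p = 0.0349, adjusted p = 0.305), -1.42, -0.70 and -0.50 in the same order. These fits did not pair the biopsies of a steer. With the steer as a block and all samples kept, FABP4 was at -0.86 (edgeR unadjusted p = 0.294). A paired permutation of its log2 CPM gave an unadjusted p of 0.5. In the order FABP4, ADIPOQ, LPL and CD36, the differences were -1.89, -1.75, -1.38 and -1.32 within run 3 and -2.33, -3.09, -0.68 and 0.27 within run 4. They were 0.81, -0.68, -0.59 and -0.98 within run 1 and 0.43, 0.91, -0.55 and -0.71 within run 2.

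Whether the change over time differed between the diets was tested as the diet by day interaction. The log2 value, restricted change minus control change, was 2.08 ± 1.12 for FABP4 (SE, 95% interval -0.21 to 4.37) and 1.08 ± 1.26 for ADIPOQ (SE, 95% interval -1.49 to 3.65). It was -0.71 ± 0.74 for LPL (SE, 95% interval -2.23 to 0.80) and -0.32 ± 0.62 for CD36 (SE, 95% interval -1.58 to 0.94). The edgeR adjusted p was 1.00 for each gene. The FABP4 value was 1.28 without control steer 6 at day 99 and 3.33 without control steer 5 at day 131. Without the samples with high TMM factors it was 3.02 (edgeR unadjusted p = 0.0129, adjusted p = 1.00), with 1.60 for ADIPOQ, -0.34 for LPL and 0.021 for CD36. The biopsies of a steer were not paired in that fit. With the steer as a block and all samples kept, the FABP4 value was 1.83 (edgeR unadjusted p = 0.128). A permutation of the steers' changes in log2 CPM between the diets gave 1.34 (unadjusted p = 0.299). By edgeR 0 of the 4 were called, as were 0% of all genes, with 0 of the 4 and 2.51% of all genes at an unadjusted p under 0.05, and DESeq2 and limma voom also gave 0 of the 4. The change over time is therefore not shown to differ between the diets for any of the 4 genes. The comparisons share samples with each other, so they are not separate evidence.

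Ordered by mean CPM, FABP4 was highest in control steers at day 99 (5.71 ± 6.91), then control at day 131 (3.18 ± 4.58), restricted at day 131 (1.91 ± 2.04) and restricted at day 99 (0.708 ± 0.245) (SD, n = 6). ADIPOQ stood in the order control day 99 (8.19 ± 10.5), control day 131 (4.04 ± 4.82), restricted day 131 (1.503 ± 2.22) and restricted day 99 (1.28 ± 1.09). LPL was ordered by day instead, from restricted day 99 (33.6 ± 23.3) and control day 99 (32.9 ± 30.9) to control day 131 (21.2 ± 21.4) and restricted day 131 (13.3 ± 4.71). CD36 had the same order as LPL, at 28.9 ± 19.5, 27.1 ± 20.8, 18.4 ± 13.7 and 15.7 ± 7.38 CPM. In each gene every pair of neighbours in the order differed by less than the larger of their SDs. By median FABP4 kept its order, but ADIPOQ in restricted steers was higher at day 99 (1.22 CPM) than at day 131 (0.735 CPM). At day 131 the median of LPL was higher in restricted (13.0 CPM) than in control steers (11.6 CPM). Those of CD36 were nearly equal (13.63 and 13.57 CPM).

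**Figure D3:**
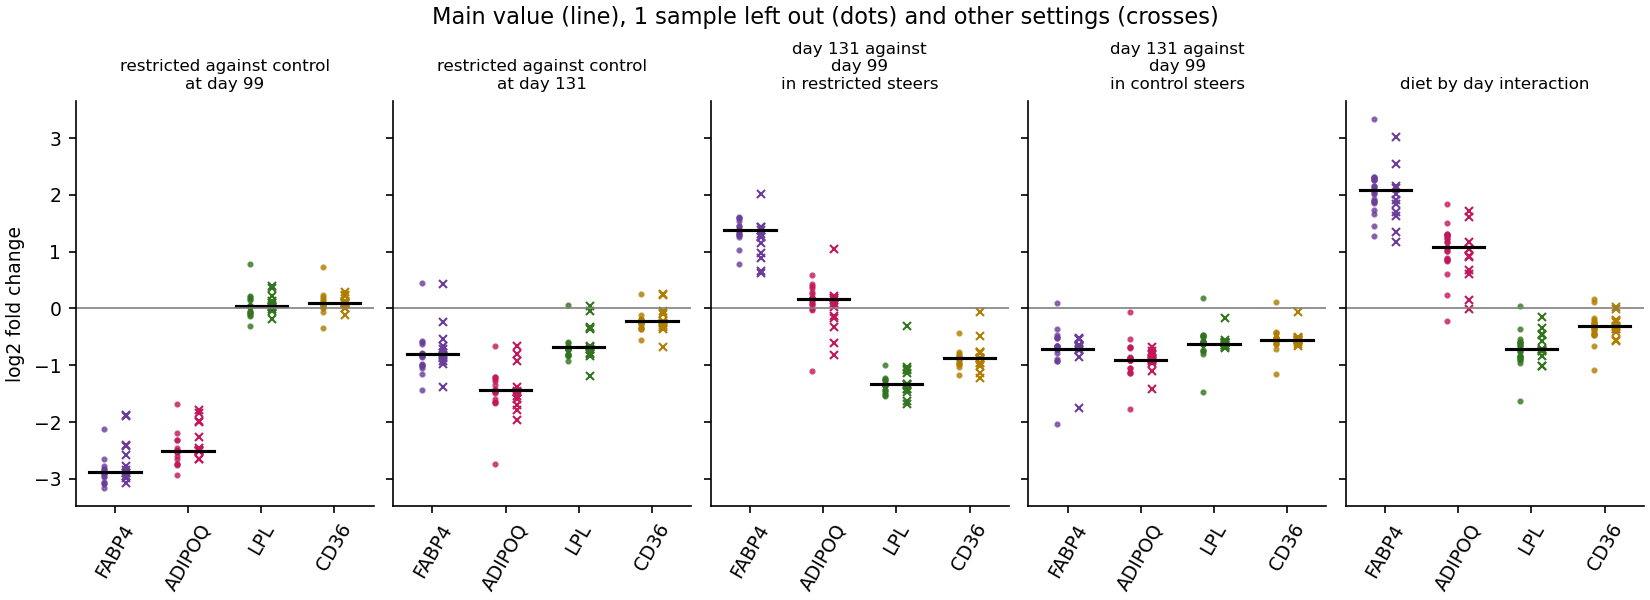
The log2 fold change of each gene (y axis) in the 5 comparisons: a black line for the main edgeR value, dots for fits with 1 sample left out, and crosses for the other settings. FABP4 stays between -3.155 and -1.87 and ADIPOQ between -2.94 and -1.69 for restricted against control at day 99, while LPL and CD36 there fall on both sides of 0.

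Steers of one group differed widely in these genes, most in ADIPOQ and FABP4. ADIPOQ had a within-group SD of 1.72 on the log2 scale, above that of 99.9% of the genes tested, and FABP4 one of 1.38, above 99.6%. LPL had an SD of 0.97 (above 95.03%) and CD36 one of 0.77 (above 77.6%), against a median of 0.60 over all genes tested. Sparse counts add to such an SD. The biological coefficient of variation fitted by edgeR, which sets counting error aside, was 1.03 for ADIPOQ, 0.872 for FABP4, 0.610 for LPL and 0.517 for CD36. The fitted trend at the same abundance was 0.479, 0.493, 0.386 and 0.391. FABP4 in restricted steers at day 99 stood apart from this, with an SD of 0.38 against 1.78, 1.45 and 1.49 in control day 99, control day 131 and restricted day 131 samples. It rested on 3 to 22 reads a sample, and the difference in spread was not tested.

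**Figure D4:**
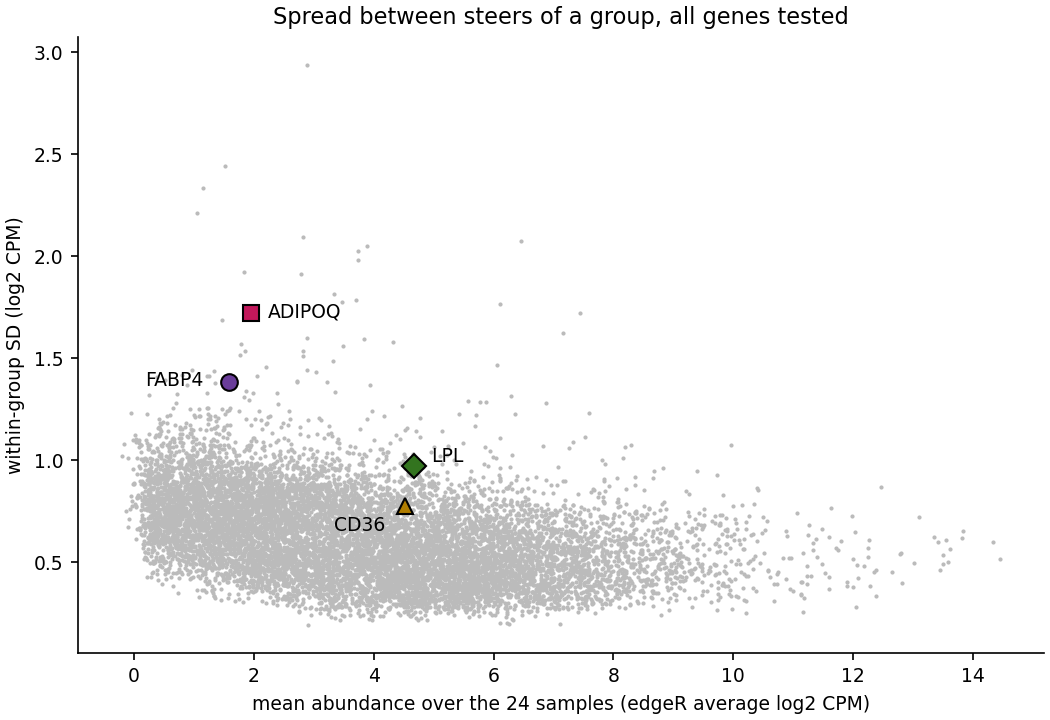
Within-group SD of log2 CPM (y axis) against mean abundance (x axis) for the 11288 genes tested, with the 4 genes marked. ADIPOQ (1.72) and FABP4 (1.38) lie at the upper edge of the cloud for their abundance, LPL (0.97) in its upper part and CD36 (0.77) within it.

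Pairs of the 4 genes were then compared among steers of the same diet and day. Correlations were taken over the 12 steers at each day, on log2 CPM as deviations from the diet mean, with permutation tests of steers within diet (two-sided) adjusted over 16 tests. LPL and CD36 gave Pearson r = 0.86 at day 99 (permutation p = 0.00057, adjusted p = 0.00456; Spearman rho = 0.80, permutation p = 0.00531). At day 131 they gave r = 0.94 (permutation p = 0.00021, adjusted p = 0.00336; rho = 0.87, permutation p = 0.00046). ADIPOQ and LPL gave r = 0.85 at day 99 (permutation p = 0.00135, adjusted p = 0.0072; rho = 0.85, permutation p = 0.00105). Their r was 0.71 at day 131 (permutation p = 0.00451, adjusted p = 0.0153; rho = 0.58, permutation p = 0.0409). FABP4 and ADIPOQ gave r = 0.74 at day 99 (permutation p = 0.00716, adjusted p = 0.0191; rho = 0.69, permutation p = 0.0363). At day 131 their r was 0.69 (permutation p = 0.0201, adjusted p = 0.0402; rho = 0.51, permutation p = 0.115). Of the 12 pairs of genes and days, 10 passed at an adjusted p under 0.05 for r, and the 2 that did not were FABP4 with LPL (r = 0.54, permutation p = 0.0885, adjusted p = 0.129) and FABP4 with CD36 (r = 0.37, permutation p = 0.292, adjusted p = 0.389) at day 99. By Spearman rho, 5 of the 12 passed: LPL with CD36 and ADIPOQ with CD36 at both days, and ADIPOQ with LPL at day 99. None of the pairs with FABP4 passed by rho. These counts were not set against those of other genes, many of which also followed LPL and CD36, as the ranks given further on show.

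Most of these relations no longer passed once a few steers were left out, which also lowered the number of steers compared. Leaving out the 2 steers farthest from the median of the first gene, 2 of the 10 still passed: ADIPOQ with LPL at day 99 (r = 0.86, permutation adjusted p = 0.0473) and LPL with CD36 at day 131 (r = 0.82, permutation adjusted p = 0.0473). LPL with CD36 at day 99 was then r = 0.67 and FABP4 with ADIPOQ r = 0.53 at day 99 and 0.38 at day 131. ADIPOQ with LPL at day 131 was r = 0.47, and FABP4 at day 131 was r = 0.19 with LPL and 0.01 with CD36. ADIPOQ with CD36 went from r = 0.65 to 0.78 at day 99 but no longer passed (permutation adjusted p = 0.124). At day 131 it went from r = 0.75 to 0.44. Without the samples with high TMM factors the same 2 pairs passed, with r = 0.895 and 0.887.

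**Figure D5:**
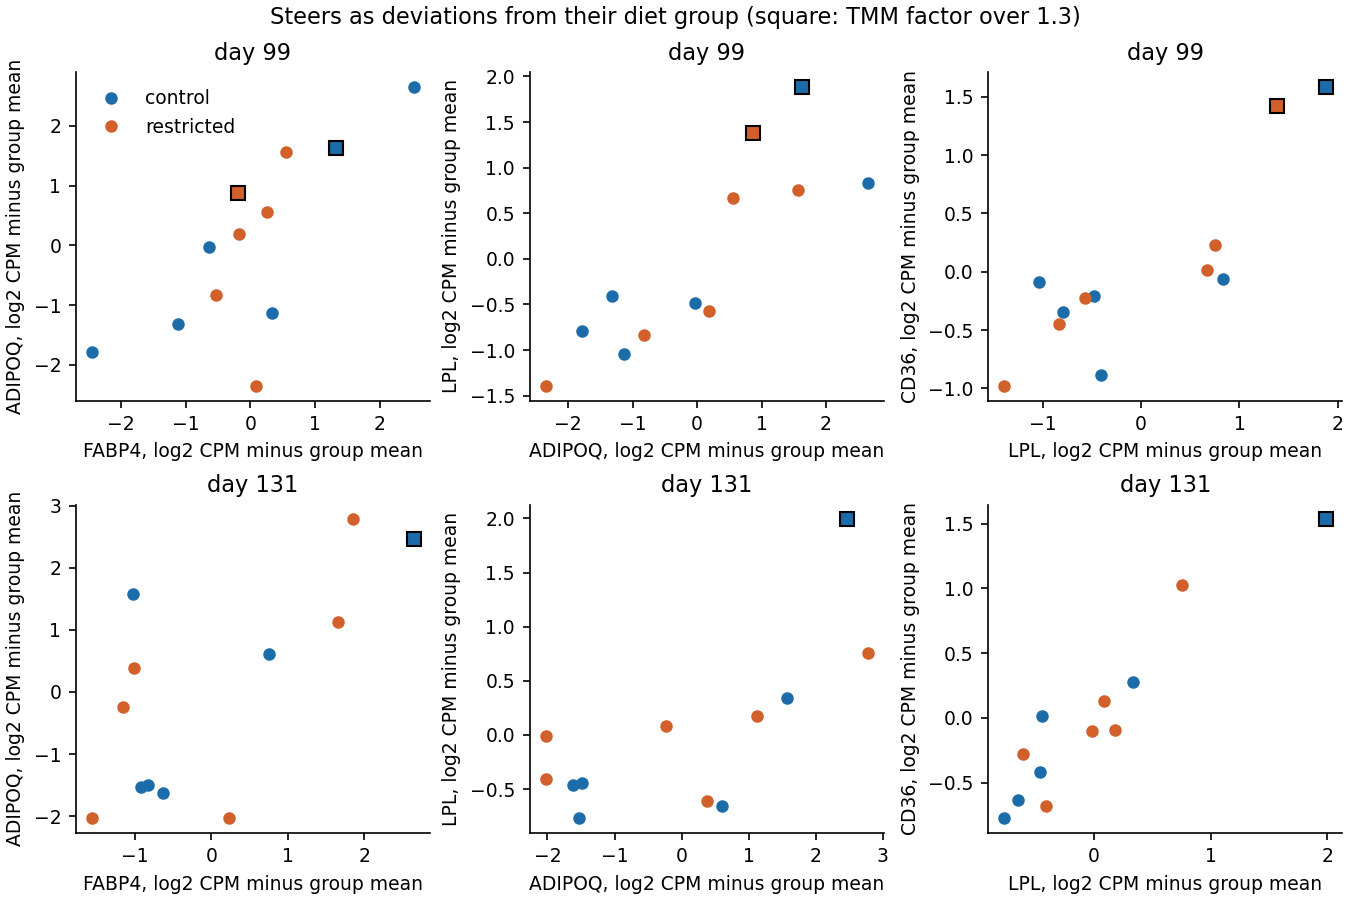
Each point is a steer at day 99 (top) or day 131 (bottom), plotted as log2 CPM minus its group mean for 2 genes (x and y axes), blue for control and orange for restricted steers. Squares mark samples with a TMM factor over 1.3, which lie at the upper right end for LPL and CD36 at both days.

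No relation between a steer's level at day 99 and at day 131 was detected at an adjusted p under 0.05 for any of the 4 genes. The correlation of a gene with itself across the days, over 12 steers, was -0.15 for FABP4 (permutation p = 0.675; rho = -0.33, permutation p = 0.269) and 0.20 for ADIPOQ (permutation p = 0.545; rho = 0.15, permutation p = 0.638). It was -0.08 for LPL (permutation p = 0.832; rho = 0.03, permutation p = 0.923) and -0.07 for CD36 (permutation p = 0.847; rho = 0.06, permutation p = 0.855). The adjusted p of r was 0.671 to 0.847. Without the 2 farthest steers r was -0.20, 0.11, 0.11 and 0.23 in the same order. Without the samples with high TMM factors, over 9 steers, it was -0.26, 0.17, 0.27 and 0.23. The FABP4 value there had a permutation p of 0.0148 (adjusted p = 0.0683; rho = -0.47, permutation p = 0.110). Control steer 3 is an example, with 91.2 CPM of LPL at day 99 and 10.1 CPM at day 131. Control steer 5 had 17.5 and 64.1 CPM. With 12 steers a moderate correlation was not detectable.

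The genes most like each of the 4 were ranked by Pearson r over the 24 samples, on deviations from the 4 group means, as a description of samples that share steers and library composition. Among the 11287 other genes, ADIPOQ ranked 12 in likeness to FABP4 (r = 0.72), and LPL ranked 10 in likeness to ADIPOQ (r = 0.76). CD36 ranked 20 in likeness to LPL (r = 0.89), and LPL ranked 137 in likeness to CD36 (r = 0.89). ADIPOQ ranked 677 in likeness to LPL. FABP4 came far down the list for CD36, at rank 3050 (r = 0.52), and for LPL, at rank 2145 (r = 0.61). In likeness to FABP4, however, the same r values put LPL at rank 36 and CD36 at rank 117. FABP4 ranked 49 in likeness to ADIPOQ. In the 21 samples without high TMM factors CD36 ranked 166 in likeness to LPL, and LPL 347 in likeness to CD36 (r = 0.70). There ADIPOQ ranked 23 for FABP4 and 45 for LPL, LPL ranked 7 for ADIPOQ, and FABP4 ranked 1976 for CD36 and 1084 for LPL. In the same samples LPL ranked 108 and CD36 313 for FABP4, and FABP4 ranked 57 for ADIPOQ. Outside the 4 genes the closest over the 24 samples were ENSBTAG00000011666 for FABP4 (r = 0.85), ENSBTAG00000008541 for ADIPOQ (r = 0.89), ENSBTAG00000017799 for LPL (r = 0.90) and ENSBTAG00000015786 for CD36 (r = 0.96). In the 21 samples without high TMM factors these were r = 0.81, 0.90, 0.77 and 0.89.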

How the data were processed

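CASAVA 1.4, Bowtie, SAMtools, HTSeq and the build UMD3.1 are named in the submitters' processing notes. Annotation release, strand setting, filters and other versions: not given in the sources used here. Overlapping genes and close copies can share or lose reads. In the reference table (ARS-UCD2.0, used for names and neighbours only) FABP4 lies beside its family members FABP9 and FABP12. What the authors deposited is, for each library, a file of whole-number read counts by gene. Technical libraries (7, from 3 samples) were summed. Pairs of them differed by less than the sampling noise (chi-square per degree of freedom 0.525 to 0.807 over genes with at least 10 counts, against 13.2 to 194 between steers) and counted as 1 sample. Runs were read from the file names.

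The main test was that of edgeR 4.0.16 under R 4.3.3 (filterByExpr with minimum count 10, TMM, robust quasi-likelihood fit of the 4 groups together, Benjamini-Hochberg over 11288 genes at 0.05). An SE was obtained as the absolute log2 fold change over root F. The prior count of log2 CPM was 2. Alternatives used DESeq2 1.42.0, limma 3.58.1 and sva 3.50.0. Correlations used 100000 permutations with numpy 2.4.6. The labels give the same animal on both days, which pairs them. The main fit did not use this pairing, so its SE and p for the days treat the biopsies of a steer as separate. Across genes the deviations of a steer's samples correlated with a median r of 0.158 (-0.605 to 0.52). Of 12 steers, 5 had their own other sample as the best match within their diet. Restricted and control steers share only numbers.

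The genes, lists and alternatives were chosen with earlier results of these data known. The 4 genes were named whatever their values, plus the gene most like each. The 15 lists of pathway and marker genes need symbols and were not run. Sequences were not used here.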

Additional observations from a re-analysis of the deposited data

Results flagged for a closer look

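In 1 of 16 groups of values (4 genes in 4 groups of 6 steers, on log2 CPM), a sample stood apart from the other 5, and chance flags about 1 in 20 such groups. CD36 in control steer 3 at day 99 was at 69.1 CPM (6.11 on the log2 scale). Its gap to the next steer was 0.666 of the range of the group. The same sample had the highest TMM factor of the 24 (1.69) and the highest LPL (91.2 CPM), and their part in the CD36 value was not tested.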

How the results depend on the processing

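None of the 20 log2 fold changes (4 genes in 5 comparisons) passed an adjusted p of 0.05 in any of 726 alternative values, where the smallest was 0.0815. Direction was kept in 689, and 8 of the 20 never turned. Many of these fits left out a sample of a group outside the comparison, which moved the value little. They could hardly turn it, so these counts overstate stability. Fits without samples of high TMM factor, with a surrogate variable or by permutation, and correlations without those samples, were added after seeing the data. For restricted against control at day 99, LPL turned to -0.18 with library totals, -0.053 with a mean of at least 5 CPM (FABP4 and ADIPOQ gave no value there) and -0.013 with the replicate block, and CD36 to -0.12 with library totals. Leaving out each sample gave -0.31 to 0.79 for LPL and -0.35 to 0.73 for CD36. At day 131, without high TMM factors, FABP4 turned to 0.44, LPL to 0.052 and CD36 to 0.25, and CD36 to 0.23 with the surrogate variable. Leaving out each sample gave -1.44 to 0.44, -0.92 to 0.057 and -0.55 to 0.25, and -2.74 to -0.66 for ADIPOQ. For the days in restricted steers, ADIPOQ turned to -0.61 (limma voom), -0.13 (library totals), -0.81 (run), -0.16 (replicate block) and -0.32 (permutation), and to between -1.11 and 0.59 with a sample left out. For control steers, samples left out gave -2.03 to 0.10 for FABP4, -1.48 to 0.18 for LPL and -1.16 to 0.11 for CD36. For the interaction, ADIPOQ was -0.0072 with run and CD36 0.021 without high TMM factors, and samples left out gave 1.28 to 3.33 for FABP4, -0.23 to 1.85 for ADIPOQ, -1.62 to 0.036 for LPL and -1.09 to 0.17 for CD36. The cause of these turns was not tested. LPL and CD36 at day 99 against day 131 turned from -0.08 and -0.07 to 0.11 and 0.23 without the 2 farthest steers and to 0.27 and 0.23 without high TMM factors. Correlations that passed fell from 10 to 2 in both cases. With a prior count of 0.5 there were 7, without ADIPOQ with CD36 at day 99 and FABP4 with ADIPOQ and with CD36 at day 131, and with library totals 11.

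Library totals moved the median log2 fold change of all genes by up to -0.21 (restricted against control at day 131). Calls over all genes at day 99 between diets went from 0 to 20 (DESeq2), 1 (limma voom), 2 (median-ratio factors), 2 (replicate block), 27 (surrogate variable) and 0 to 5 (a sample left out, most without control steer 4 at day 99). At day 131 they went from 0 to 3 with DESeq2. For the days in restricted steers 43 became 241 (DESeq2), 65 (limma voom), 16 (at least 5 CPM), 109 (only these groups), 66 (without high TMM factors), 135 (surrogate variable) and 21 to 153 (without restricted steer 5 or steer 6 at day 99). In control steers 0 became 1 with the surrogate variable. For the interaction 0 became 2 (DESeq2), 3 (surrogate variable) and 0 to 1 (a sample left out). The replicate block gave 62 calls for the days in restricted steers and left the other 3 comparisons at 0. The steer was the block for the days, and for the diets, which share no animals, the label number. Depth limits FABP4 and ADIPOQ most, at 1 to 28 reads in restricted steers for FABP4 and 0 to 39 for ADIPOQ.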
